A study of Mus musculus with 15 samples.

Results

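Collagens are the main structural proteins of the extracellular matrix, each built from α chains that wind into a triple helix. Fibrillar collagens (types I, III, V and others) assemble into tensile fibrils, and they are made chiefly by fibroblasts. Type IV collagen forms the sheet-like network of basement membranes, which in the islet surrounds the capillaries, and further types form beaded filaments, coat fibrils, anchor epithelia or span the cell membrane. The collagen genes of islets from NOD mice, an inbred strain (NOD/ShiLtj) that develops autoimmune diabetes through leukocyte infiltration of the islets (insulitis), were followed over 5 ages.

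Every gene of the deposited count table whose name is Col, a number, the letter a and a number was taken, giving 44 genes of 48709. Of these, 11 are fibrillar, 6 are chains of type IV (called basement membrane here) and 27 are other collagens. Bulk RNA-seq had been performed on islets of 15 NOD females, 3 mice per age, every 2 weeks from 4 to 12 weeks, and the study asked how insulitis develops gradually with age. The islets had been released with collagenase, separated on a gradient and picked by hand, so each library held the endocrine cells and whatever other cells stayed attached. No mice of another strain were compared, so age, growth and disease progression cannot be told apart. In whole-islet RNA, fewer cells of a type and less RNA per cell cannot be told apart either.

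Library totals ran from 25407492 to 41616275 counts, and collagen genes held between 0.1215% and 0.3902% of them. The endocrine markers were abundant in every library, with a summed level of 77090 to 174800 CPM for 12 genes (CPM, counts relative to the library size, here scaled by TMM, the trimmed mean of M values). The 11 leukocyte markers stood far apart between mice of the same age. At 8 weeks, their sum was 135.9 CPM in mouse 1 but 575.9 and 829.6 CPM in the other mice, and at 10 weeks it was 840.6 CPM in mouse 3 but 1463 and 1991 CPM in the other mice. The acinar markers also varied, from 1377 to 16220 CPM, without following age. Of the 44 collagen genes, 40 passed the filter on low counts, whereas Col2a1, Col9a1, Col22a1 and Col10a1 reached at most 6, 7, 7 and 11 counts in any mouse and were not tested. Col2a1, Col9a1 and Col10a1 encode cartilage collagens. Col10a1 also lies within Nt5dc1 on the opposite strand, so that its few counts could not be assigned with certainty.

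Promoter sequence is shown for a pair of fibrillar genes that rose together, Col3a1 and Col5a1, because their start regions are built differently. The sequences are those of RefSeq on GRCm38.p6, 5′ to 3′ on the plus strand, the strand of both genes, and each ends at the base before the annotated start, which was the same in the deposited table. Capitals mark TATAAA in Col3a1 (chr1:45311288-45311537) and the GC box GGGCGG or its reverse complement in Col5a1 (chr2:27886175-27886424).
Col3a1: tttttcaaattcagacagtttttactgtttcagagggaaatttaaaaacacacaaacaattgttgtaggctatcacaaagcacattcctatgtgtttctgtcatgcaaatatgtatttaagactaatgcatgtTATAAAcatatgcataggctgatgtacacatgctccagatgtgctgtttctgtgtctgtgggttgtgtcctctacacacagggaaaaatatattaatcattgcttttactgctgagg
Col5a1: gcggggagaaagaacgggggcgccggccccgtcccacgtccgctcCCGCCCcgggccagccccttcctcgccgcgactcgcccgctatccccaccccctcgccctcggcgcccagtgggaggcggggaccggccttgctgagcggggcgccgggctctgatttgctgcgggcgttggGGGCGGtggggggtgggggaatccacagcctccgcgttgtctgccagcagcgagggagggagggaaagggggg
Col3a1 had 35.2% G and C, no CpG and 1 TATAAA, 117 bases before the start. Col5a1 had 76.4% G and C and 28 CpG. RefSeq windows were present for 35 of the 44 collagen genes, in 38 windows of 250 bases. TATAAA, searched on both strands, was found in 5 of these windows and in 12.4% of all 32851 promoter windows. CCAAT was found in 13 of the 38 windows and in 33.8% of all windows, and GGGCGG in 22 and in 32.7%. Each motif was searched on its own, so that matches of different motifs could share bases, and a match describes the letters alone.

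The main type IV chains, Col4a1 and Col4a2, lie head to head on chromosome 8, and their annotated starts overlap by 22 bases (chr8:11312805-11312826, GRCm38.p6). The overlap is shown on the plus strand, the strand of Col4a2, because both transcripts begin there. Motifs are not set in capitals in it, although it contains the letters GGGCGG.
Col4a1 and Col4a2 overlap: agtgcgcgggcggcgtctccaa

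Collagen RNA was more abundant at 12 than at 4 weeks, and fibrillar chains took over from type IV as the class with the largest share. Levels were compared between genes as TPM (a proportion of the library's transcripts that corrects for their length), as deposited. All collagens together summed to 467.5 ± 38.4 TPM at 4 weeks and 923.7 ± 228 TPM at 12 weeks (mean ± SD, n = 3), a ratio of 1.98. The 3 mice at 4 weeks had 510.6, 454.8 and 437.1 TPM, and those at 12 weeks had 761.4, 825.7 and 1184 TPM, without overlap. Mouse 3 at 12 weeks was the highest of all 15 mice.

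Fibrillar collagens summed to 124.1, 92.2 and 74.1 TPM in the mice at 4 weeks and to 107.6, 66.2 and 104.9 TPM at 6 weeks, so that these ages overlapped. The sum was 123.4, 207.1 and 248.4 TPM at 8 weeks, 319.7, 327.9 and 187.7 TPM at 10 weeks, and 288.3, 318.5 and 503.6 TPM at 12 weeks. Mouse 1 at 8 weeks stayed within the range of 4 weeks, and mouse 3 at 10 weeks lay within the range of 8 weeks. The ratio of the means of 12 over 4 weeks was 3.82.

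Type IV chains, by contrast, summed to 254.6, 252.3 and 251.8 TPM at 4 weeks and to 229.5, 248.6 and 305.8 TPM at 12 weeks, so that these ages overlapped, with a ratio of 1.03. At 6 weeks, the sum was 204.3, 185.0 and 186.3 TPM, below every mouse at 4 weeks. The other collagens summed to 118 ± 12.2 TPM at 4 weeks and 292 ± 71.7 TPM at 12 weeks (mean ± SD, n = 3), a ratio of 2.48. These sums are descriptions, and they are not scaled by TMM.

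The share of collagen TPM held by type IV went from 49.9, 55.5 and 57.6% in the mice at 4 weeks to 30.1, 30.1 and 25.8% at 12 weeks, whereas the fibrillar share went from 24.3, 20.3 and 16.9% to 37.9, 38.6 and 42.5%. Neither share overlapped between 4 and 12 weeks. The mean fibrillar share was 20.5, 22.9, 32.4, 36.3 and 39.7% at the successive ages, and the mean type IV share was 54.3, 48.1, 38.2, 33.5 and 28.7%. Col4a1 had the highest mean TPM of all collagen genes at every age, while Col3a1 moved from rank 4 at 4 and 6 weeks to rank 2 from 8 weeks on, and Col15a1 moved from rank 3 to rank 7.

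**Figure D1:**
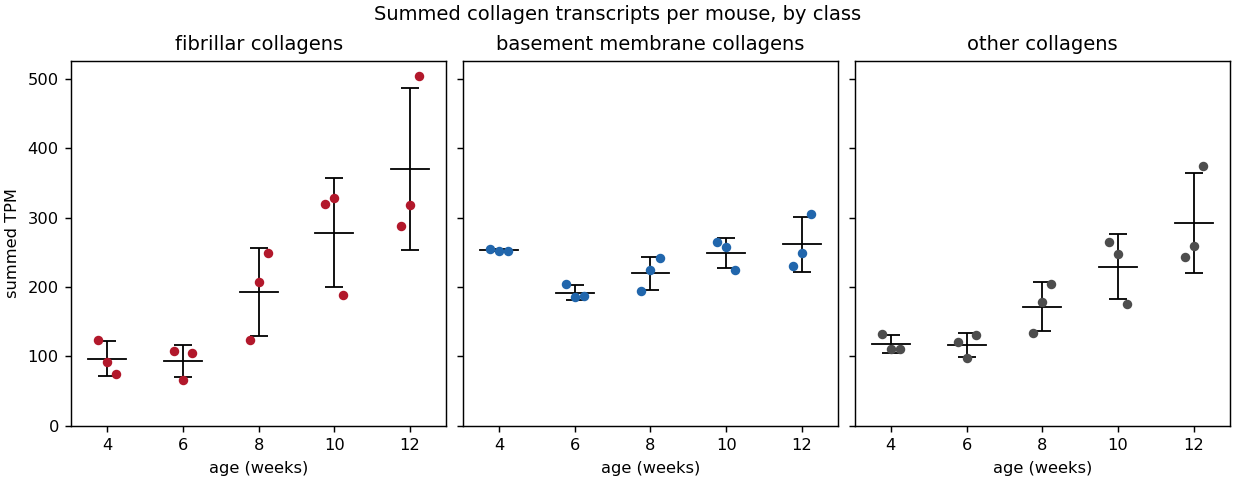
Summed TPM (vertical axis) of fibrillar, basement membrane and other collagens against age in weeks, where each point is a mouse, the line is the mean and the bar is the SD of 3 mice. The fibrillar sum lies at 74.1 to 124.1 TPM at 4 weeks and at 288.3 to 503.6 TPM at 12 weeks, while the basement membrane sum overlaps between these ages.

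In the test of single genes, 22 collagen genes rose and 7 fell between 4 and 12 weeks of the 40 tested (edgeR quasi-likelihood test, adjusted p under 0.05 over all 16554 genes tested, 3 mice per age). Of the 22, Col6a4 and Col17a1 lay under the cutoff of the filter on low counts (0.357 CPM) in every mouse at 4 weeks and entered the test through other ages only. Over all genes tested, 26.3% rose and 27.2% fell by the same rule, so that many genes outside the family moved too. Without the filter, the counts were also 22 and 7, out of all 44 collagen genes. The log2 fold changes of the 40 genes had a median of 0.92, against -0.05 over all genes tested. In 24 collagen genes every mouse at 12 weeks lay above every mouse at 4 weeks, and in 8 every mouse lay below, where all genes tested gave 30.3% and 33.9%. In a joint test over the 5 ages, 31 of the 40 genes changed, against 56% of all genes tested. These 31 were 6 of 10 fibrillar, 4 of 6 type IV and 21 of 24 other collagen genes. Exact permutation tests over single genes cannot go below p = 0.1 with 3 mice against 3.

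**Figure D2:**
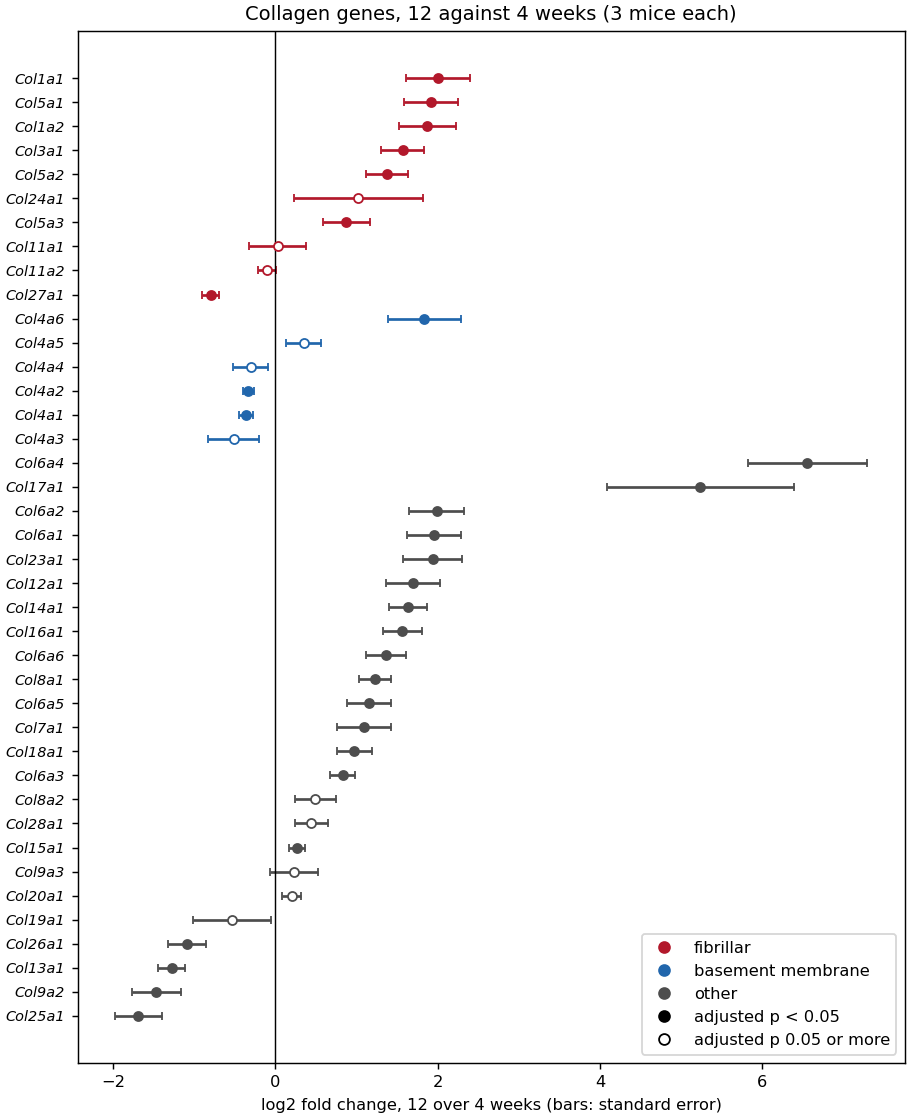
Log2 fold change of 12 over 4 weeks (horizontal axis) with its standard error for the 40 tested collagen genes, ordered within class, where filled points passed the edgeR test and open points did not. Most fibrillar and other genes lie to the right of 0, the main type IV chains lie just to the left, and Col6a4 and Col17a1 lie farthest right.

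The fibrillar genes split by type. All chains of types I, III and V rose, Col27a1 fell, and Col11a1, Col11a2 and Col24a1 did not pass the test. Type I collagen, the main fibril protein of most connective tissue, is made of the products of Col1a1 (chromosome 11, 94936224 to 94953042, plus strand, GRCm38, as are the positions below) and Col1a2 (chromosome 6, 4504814 to 4541544, plus strand). Col1a1 was at 81.6, 52.2 and 36.6 CPM at 4 weeks, 73.7, 39.2 and 68.7 at 6, 75.03, 145 and 176 at 8, 217, 234 and 123 at 10 and 184, 191 and 310.1 at 12 weeks. For Col1a2, the mice had 117, 94.5 and 65.7 CPM at 4 weeks, 104, 63.2 and 110.2 at 6 weeks, 108, 186 and 233 at 8 weeks, 310.0, 334 and 176 at 10 weeks and 262, 297 and 455 at 12 weeks. Both genes overlapped between 4 and 6 weeks, and mouse 1 at 8 weeks remained at the earlier level while the other mice of that age had moved up. From 4 to 12 weeks, Col1a1 rose 4.02-fold (log2 fold change 2.01, SE 0.40, adjusted p = 0.00135) and Col1a2 3.66-fold (log2 fold change 1.87, SE 0.35, adjusted p = 0.000993), with no overlap.

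Col3a1 (chromosome 1, 45311538 to 45349706, plus strand) encodes type III collagen, which accompanies type I in distensible tissue and in the reticular fibres of lymphoid tissue. The CPM of Col3a1 was 245, 197 and 149 at 4 weeks, then 197, 129.9 and 207 at 6, 264, 375 and 414 at 8, 464, 519 and 297 at 10 and 494, 538 and 719.9 at 12 weeks. Every mouse from 8 weeks on lay above every mouse at 4 and 6 weeks. Col3a1 rose 2.97-fold from 4 to 12 weeks (log2 fold change 1.57, SE 0.27, adjusted p = 0.000611), and it was the fibrillar gene with the highest TPM at every age.

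Type V collagen is a minor fibrillar type that starts fibril assembly and limits fibril width. Col5a1 stood at 23.1, 17.1 and 15.2 CPM in the mice at 4 weeks, 24.2, 12.1 and 19.3 at 6 weeks, 26.9, 37.1 and 50.03 at 8 weeks, 53.5, 53.8 and 32.7 at 10 weeks and 52.2, 58.5 and 98.8 at 12 weeks. Col5a2 was at 31.7, 28.1 and 20.6 CPM at 4 weeks, 34.6, 18.4 and 28.8 at 6, 33.7, 41.9 and 53.1 at 8, 65.8, 61.97 and 40.02 at 10 and 62.2, 64.6 and 81.4 at 12 weeks. The order of the mice within an age was the same for both chains at 4, 6, 8 and 12 weeks. From 4 to 12 weeks, Col5a1 rose 3.78-fold (log2 fold change 1.92, SE 0.33, adjusted p = 0.000657) and Col5a2, whose gene lies beside Col3a1 on chromosome 1 on the opposite strand, rose 2.59-fold (log2 fold change 1.37, SE 0.26, adjusted p = 0.00106). For Col5a3, the mice had 11.9, 12.4 and 10.4 CPM at 4 weeks, 18.98, 8.47 and 7.88 at 6 weeks, 14.4, 11.9 and 19.8 at 8 weeks, 17.1, 17.4 and 12.8 at 10 weeks and 18.99, 20.7 and 23.6 at 12 weeks. Col5a3 rose 1.83-fold (log2 fold change 0.87, SE 0.29, adjusted p = 0.0229), but 3 of the 15 fits that each left out a single mouse lost that call, those without mouse 1 or 3 at 4 weeks or mouse 3 at 12 weeks, with adjusted p of 0.0507, 0.0772 and 0.0731.

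Col27a1, a fibrillar collagen best known from cartilage, went the other way. The CPM of Col27a1 was 65.9, 63.7 and 66.3 at 4 weeks, then 59.2, 49.8 and 54.4 at 6, 46.8, 39.1 and 46.1 at 8, 36.0, 48.2 and 38.7 at 10 and 35.8, 39.9 and 36.9 at 12 weeks. The level was lower in every mouse at 8, 10 and 12 weeks than in any mouse at 4 or 6 weeks. Col27a1 was at 0.57 of its level of 4 weeks by 12 weeks (log2 fold change -0.80, SE 0.11, adjusted p = 0.000243). Col11a2, another cartilage chain, stayed between 10.5 and 15.1 CPM in all 15 mice (log2 fold change -0.10, SE 0.11, adjusted p = 0.472). Col11a1 and Col24a1 were near the limit of detection, at 0.299 to 1.10 and 0 to 0.535 CPM, with adjusted p of 0.952 and 0.292.

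**Figure D3:**
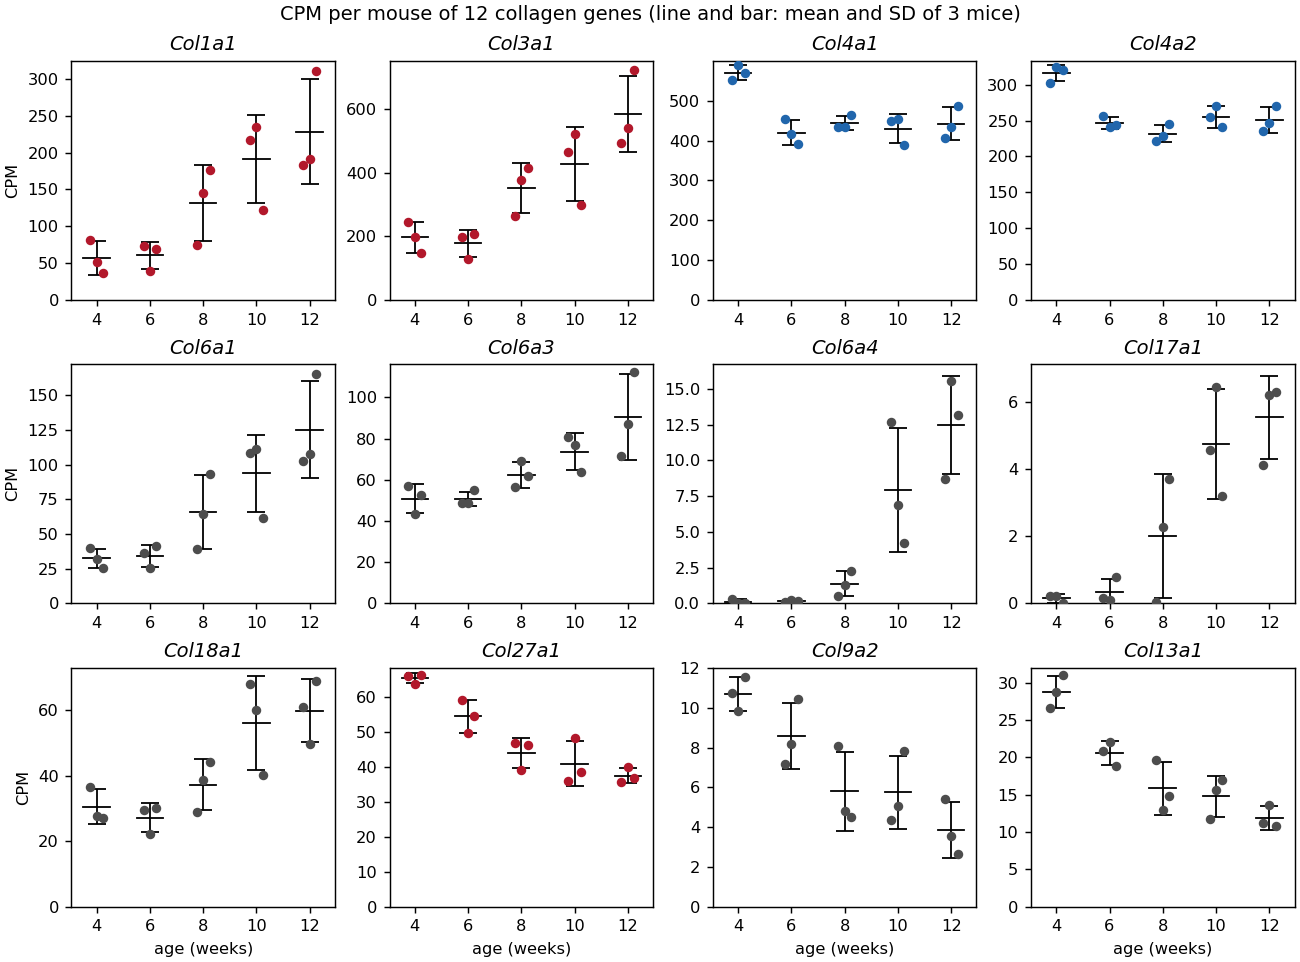
CPM (vertical axis, scaled by TMM) of 12 collagen genes against age in weeks, with a point per mouse, the mean as a line and the SD of 3 mice as a bar. Red marks fibrillar, blue basement membrane and grey other collagens, and each panel has its own scale from 0.

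The main basement membrane chains, Col4a1 and Col4a2, did not follow the fibrillar chains of types I, III and V. The α1 and α2 chains of type IV together form the network of nearly all basement membranes, and led the type IV chains in TPM. Both were lower at 12 than at 4 weeks in CPM scaled by TMM, but not in TPM. Mean TPM at 4 and 12 weeks was 157.8 and 161.0 for Col4a1, and 91.65 and 95.53 for Col4a2. Col4a1 stood at 552, 589 and 569 CPM in the mice at 4 weeks, 454, 415 and 391 at 6 weeks, 435, 434 and 464 at 8 weeks, 448, 453 and 389 at 10 weeks and 407, 435 and 487 at 12 weeks. Col4a2 was at 303, 325 and 320.1 CPM at 4 weeks, 257, 241 and 244 at 6, 221, 229 and 245 at 8, 254, 270.2 and 240.3 at 10 and 235, 247 and 270.3 at 12 weeks. In both genes, every mouse at 6 weeks and later lay below every mouse at 4 weeks. Col4a1 (chromosome 8, 11198423 to 11312826, minus strand) stood at 0.78 of its level of 4 weeks by 12 weeks (log2 fold change -0.37, SE 0.09, adjusted p = 0.00361) and Col4a2 (chromosome 8, 11312805 to 11449287, plus strand) at 0.79 (log2 fold change -0.33, SE 0.07, adjusted p = 0.00181).

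The call of both genes depended on the scaling and on the test. When libraries were scaled by their totals in place of TMM, the midpoint over all tested genes (the median of their log2 fold changes) moved from -0.05 to 0.20, and Col4a1 and Col4a2 had log2 fold changes of -0.12 (adjusted p = 0.355) and -0.09 (adjusted p = 0.442). A change of scaling shifts all genes by about the same amount, so a position relative to those medians cannot decide between the scalings. The edgeR exact test on TMM gave -0.32 (adjusted p = 0.0571) and -0.28 (adjusted p = 0.0545). Read pairs from the 22 shared bases cannot be told apart if strand was not used in the counting, which is not given in the sources used here.

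The remaining type IV chains lay between 0.0697 and 3.02 TPM, against 66.5 to 189.1 TPM for Col4a1 and Col4a2. Col4a3, Col4a4 and Col4a5, known from the basement membrane of the kidney filter, lay between 2.07 and 7.51 CPM in all mice and did not pass the test of 12 against 4 weeks (log2 fold changes -0.52, SE 0.31, adjusted p = 0.18, then -0.31, SE 0.22, adjusted p = 0.257, and 0.35, SE 0.22, adjusted p = 0.193). For Col4a6, the mice had 0.487, 0.299 and 0.4704 CPM at 4 weeks, 0.515, 0.763 and 0.512 at 6 weeks, 0.693, 0.571 and 0.393 at 8 weeks, 1.77, 1.26 and 0.499 at 10 weeks and 1.43, 1.003 and 2.11 at 12 weeks. Mouse 3 at 10 weeks stayed at the level of 4 to 8 weeks, and the remaining 5 mice at 10 and 12 weeks were higher. Col4a6, which pairs with the α5 chain in the basement membrane of smooth muscle, rose 3.57-fold (log2 fold change 1.84, SE 0.45, adjusted p = 0.00475).

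The 6 chains of type VI collagen, which forms beaded filaments between basement membranes and fibrils, rose from 4 to 12 weeks without overlap, Col6a4 having passed the filter only through the later ages. The CPM of Col6a1 was 39.7, 31.9 and 25.5 at 4 weeks, then 36.5, 25.4 and 41.1 at 6, 39.5, 64.5 and 93.1 at 8, 108, 111 and 61.6 at 10 and 102, 108 and 165 at 12 weeks. Col6a2 stood at 41.4, 29.7 and 27.6 CPM in the mice at 4 weeks, 39.7, 23.2 and 40.99 at 6 weeks, 40.9, 61.6 and 89.3 at 8 weeks, 101, 104 and 58.0 at 10 weeks and 111, 104 and 176 at 12 weeks. These neighbouring genes on chromosome 10 had the same pattern as type I, including the low mouse 1 at 8 weeks and mouse 3 at 10 weeks. Col6a1 rose 3.87-fold (log2 fold change 1.95, SE 0.33, adjusted p = 0.000621) and Col6a2 3.96-fold (log2 fold change 1.99, SE 0.34, adjusted p = 0.000629).

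Col6a3 was at 57.0, 43.1 and 52.4 CPM at 4 weeks, 48.9, 48.8 and 54.8 at 6, 56.3, 69.1 and 61.6 at 8, 80.6, 76.9 and 63.6 at 10 and 71.3, 87.3 and 113 at 12 weeks. Col6a3, the large α3 chain of the classical type VI trimer, rose by less, 1.78-fold (log2 fold change 0.83, SE 0.16, adjusted p = 0.00101). In TPM, Col6a3 stood at 0.525, 0.495 and 0.753 of Col6a1 in the mice at 4 weeks, and at 0.255, 0.296 and 0.249 at 12 weeks. The log2 ratio changed by -1.12, with no overlap (exact permutation test, two-sided, p = 0.1, the smallest possible, and 0.2 after Benjamini-Hochberg adjustment over the 6 ratios computed).

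The ratio of Col6a1 to Col6a2 lay within 1.75 to 2.09 in all 15 mice, that of Col4a1 to Col4a2 within 1.53 to 1.88, and that of Col1a1 to Col1a2 within 1.02 to 1.45. For these ratios the exact permutation tests of 12 against 4 weeks gave p = 0.7, 0.2 and 0.3. The ratio of Col5a2 to Col5a1 was 1.29 ± 0.14 at 4 weeks and 0.92 ± 0.17 at 12 weeks, and that of Col3a1 to Col4a1 was 0.245 ± 0.0646 and 0.927 ± 0.104 (mean ± SD, n = 3; exact permutation p = 0.1 for both). Col3a1 thus reached nearly the TPM of Col4a1 at 12 weeks, and in mouse 3 of that age it stood at 1.05 of it.

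Col6a4, Col6a5 and Col6a6 are neighbours on the minus strand of chromosome 9 and encode chains related to the α3 chain. For Col6a4, the mice had 0.299, 0.0428 and 0.0362 CPM at 4 weeks, 0.0792, 0.237 and 0.158 at 6 weeks, 0.547, 1.32 and 2.29 at 8 weeks, 12.7, 6.88 and 4.19 at 10 weeks and 8.72, 15.5 and 13.1 at 12 weeks. Col6a4 was hardly detected at 4 and 6 weeks, lay above every younger mouse in all mice at 8 weeks, and was higher again in every mouse at 10 weeks. Summed over 3 mice, it had 10 counts at 4 weeks and 1151 at 12 weeks, a ratio of 96.7 (95% interval 52.4 to 202, for counting error only), and it passed the filter on low counts only through the later ages (log2 fold change 6.56, SE 0.74, adjusted p = 0.000159). The CPM of Col6a5 was 3.29, 3.25 and 4.13 at 4 weeks, then 3.45, 2.63 and 4.14 at 6, 5.91, 5.56 and 2.75 at 8, 6.48, 5.45 and 3.96 at 10 and 7.91, 7.42 and 8.43 at 12 weeks. Col6a6 stood at 5.76, 6.37 and 5.17 CPM in the mice at 4 weeks, 5.71, 5.58 and 8.198 at 6 weeks, 6.602, 9.81 and 7.64 at 8 weeks, 10.2, 13.9 and 8.84 at 10 weeks and 11.2, 13.6 and 19.7 at 12 weeks. In both genes every mouse at 12 weeks lay above every mouse at 4 weeks, and they rose 2.22-fold and 2.57-fold from 4 to 12 weeks (adjusted p = 0.00381 and 0.000796, edgeR).

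Among fibril-associated collagens, which lie on the surface of fibrils and link them to other matrix, Col12a1, Col14a1 and Col16a1 rose, Col9a2 fell and Col9a3, Col19a1 and Col20a1 did not pass the test. Col12a1 was at 3.59, 2.91 and 2.82 CPM at 4 weeks, 3.61, 2.16 and 4.81 at 6, 5.03, 6.13 and 5.36 at 8, 10.1, 5.803 and 4.09 at 10 and 8.07, 11.9 and 10.3 at 12 weeks. For Col14a1, the mice had 19.8, 21.5 and 14.6 CPM at 4 weeks, 25.4, 15.3 and 23.8 at 6 weeks, 31.7, 45.4 and 36.1 at 8 weeks, 44.5, 46.7 and 29.8 at 10 weeks and 45.5, 60.3 and 67.7 at 12 weeks. The CPM of Col16a1 was 12.1, 12.01 and 9.66 at 4 weeks, then 13.7, 8.89 and 13.1 at 6, 13.5, 16.5 and 21.6 at 8, 31.8, 28.5 and 18.5 at 10 and 27.7, 31.5 and 40.8 at 12 weeks. The highest level at 4 weeks was below the lowest at 12 weeks in all of these genes. They rose 3.24-fold, 3.10-fold and 2.96-fold (adjusted p = 0.00122, 0.000341 and 0.000413, edgeR).

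Col9a2 stood at 10.8, 9.83 and 11.5 CPM in the mice at 4 weeks, 7.17, 8.21 and 10.4 at 6 weeks, 8.098, 4.81 and 4.54 at 8 weeks, 4.38, 5.07 and 7.84 at 10 weeks and 5.41, 3.58 and 2.64 at 12 weeks. Col9a2, which encodes a chain of the cartilage type IX collagen, fell to 0.36 of its level (log2 fold change -1.47, SE 0.30, adjusted p = 0.0017), while the other chains of that trimer were not tested (Col9a1) or did not pass the test (Col9a3, adjusted p = 0.535). Mouse 3 at 10 weeks, low for types I and VI, was the highest of its age for Col9a2, and mouse 1 at 8 weeks was too. Col9a3 shares 234 bases with Tcfl5 on the opposite strand. Col20a1 lay between 6.80 and 11.3 CPM, Col19a1 between 0.233 and 0.867 CPM.

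Col15a1 and Col18a1 encode the multiplexins, collagens of vascular and epithelial basement membranes, and the end of the type XVIII chain is cleaved off as endostatin. Col15a1 was at 131, 122 and 131 CPM at 4 weeks, 124, 112 and 135 at 6, 137, 135 and 138 at 8, 149.5, 151 and 119.5 at 10 and 149, 142 and 173 at 12 weeks. For Col18a1, the mice had 36.6, 27.7 and 27.1 CPM at 4 weeks, 29.5, 22.1 and 30.03 at 6 weeks, 29.0, 38.6 and 44.2 at 8 weeks, 68.03, 60.04 and 40.1 at 10 weeks and 60.8, 49.6 and 68.8 at 12 weeks. Col18a1 rose 1.96-fold (log2 fold change 0.97, SE 0.22, adjusted p = 0.00267), and Col15a1 only 1.21-fold (log2 fold change 0.27, SE 0.10, adjusted p = 0.0347). The call for Col15a1 was lost without mouse 1, 2 or 3 at 4 weeks or mouse 3 at 12 weeks (adjusted p 0.0605, 0.11, 0.0663 and 0.165). The gene Slc19a1 overlaps Col18a1 on the opposite strand over 8825 bases, and its own counts amounted to 16.9% of those of Col18a1.

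Col7a1, the collagen of the anchoring fibrils beneath epithelia, was low but rose. The CPM of Col7a1 was 1.87, 2.27 and 1.77 at 4 weeks, then 2.93, 1.29 and 2.88 at 6, 2.04, 2.03 and 2.93 at 8, 6.12, 3.82 and 2.66 at 10 and 4.18, 4.11 and 4.34 at 12 weeks. It rose 2.14-fold (log2 fold change 1.10, SE 0.33, adjusted p = 0.0147), and the call was lost without mouse 3 at 4 weeks (adjusted p = 0.0541). Col8a1 stood at 4.34, 5.05 and 3.55 CPM in the mice at 4 weeks, 8.92, 6.02 and 9.11 at 6 weeks, 7.92, 7.95 and 8.96 at 8 weeks, 11.2, 7.56 and 7.41 at 10 weeks and 10.3, 9.73 and 10.1 at 12 weeks. Col8a1, a short-chain collagen of vessel walls, lay higher in every mouse at 6 weeks than in any at 4 weeks, and it rose 2.33-fold by 12 weeks (log2 fold change 1.22, SE 0.20, adjusted p = 0.000493). Col8a2 lay between 0.605 and 1.79 CPM (adjusted p = 0.118).

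The transmembrane collagens moved in opposite directions. Col17a1 was at 0.225, 0.214 and 0 CPM at 4 weeks, 0.159, 0.105 and 0.788 at 6, 0.0365, 2.28 and 3.71 at 8, 4.56, 6.46 and 3.19 at 10 and 4.12, 6.22 and 6.29 at 12 weeks. For Col23a1, the mice had 1.46, 1.11 and 0.832 CPM at 4 weeks, 1.03, 1.63 and 1.77 at 6 weeks, 1.204, 2.25 and 3.25 at 8 weeks, 4.89, 3.87 and 2.63 at 10 weeks and 4.05, 4.15 and 4.87 at 12 weeks. Col17a1, the hemidesmosome collagen of epithelial cells, was absent from the counts of mouse 3 at 4 weeks, which allows up to 3 counts, and mouse 1 at 8 weeks had as little as the younger mice. It had 11 counts over the 3 mice at 4 weeks and 513 at 12 weeks, a ratio of 39.2 (95% interval 21.7 to 79.0, for counting error only), and it too passed the filter only through the later ages (log2 fold change 5.24, SE 1.15, adjusted p = 0.00244). Col23a1 rose 3.83-fold (log2 fold change 1.94, SE 0.36, adjusted p = 0.00098).

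The CPM of Col13a1 was 26.6, 28.7 and 30.97 at 4 weeks, then 20.8, 22.1 and 18.8 at 6, 19.7, 12.9 and 14.9 at 8, 11.7, 15.7 and 17.02 at 10 and 11.2, 13.7 and 10.8 at 12 weeks. Col25a1 stood at 2.55, 2.91 and 3.58 CPM in the mice at 4 weeks, 2.496, 1.97 and 2.48 at 6 weeks, 1.46, 1.28 and 1.29 at 8 weeks, 0.941, 2.11 and 1.16 at 10 weeks and 0.843, 1.14 and 0.817 at 12 weeks. Col13a1, known from cell adhesion sites and the neuromuscular junction, fell to 0.41 of its level (log2 fold change -1.28, SE 0.17, adjusted p = 0.000242), and Col25a1, a neuronal collagen, to 0.31 (log2 fold change -1.69, SE 0.29, adjusted p = 0.0006). Col26a1 was at 1.98, 1.67 and 2.24 CPM at 4 weeks, 1.94, 1.63 and 1.73 at 6, 1.31, 1.39 and 1.14 at 8, 0.905, 0.904 and 0.897 at 10 and 0.8103, 1.27 and 0.692 at 12 weeks. Col26a1 fell to 0.47 of its level (log2 fold change -1.09, SE 0.23, adjusted p = 0.00211). Col28a1, a collagen of peripheral nerve, lay between 5.68 and 12.2 CPM and did not pass the test (log2 fold change 0.44, SE 0.21, adjusted p = 0.0882), although all mice at 12 weeks lay above those at 4 weeks.

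**Figure D4:**
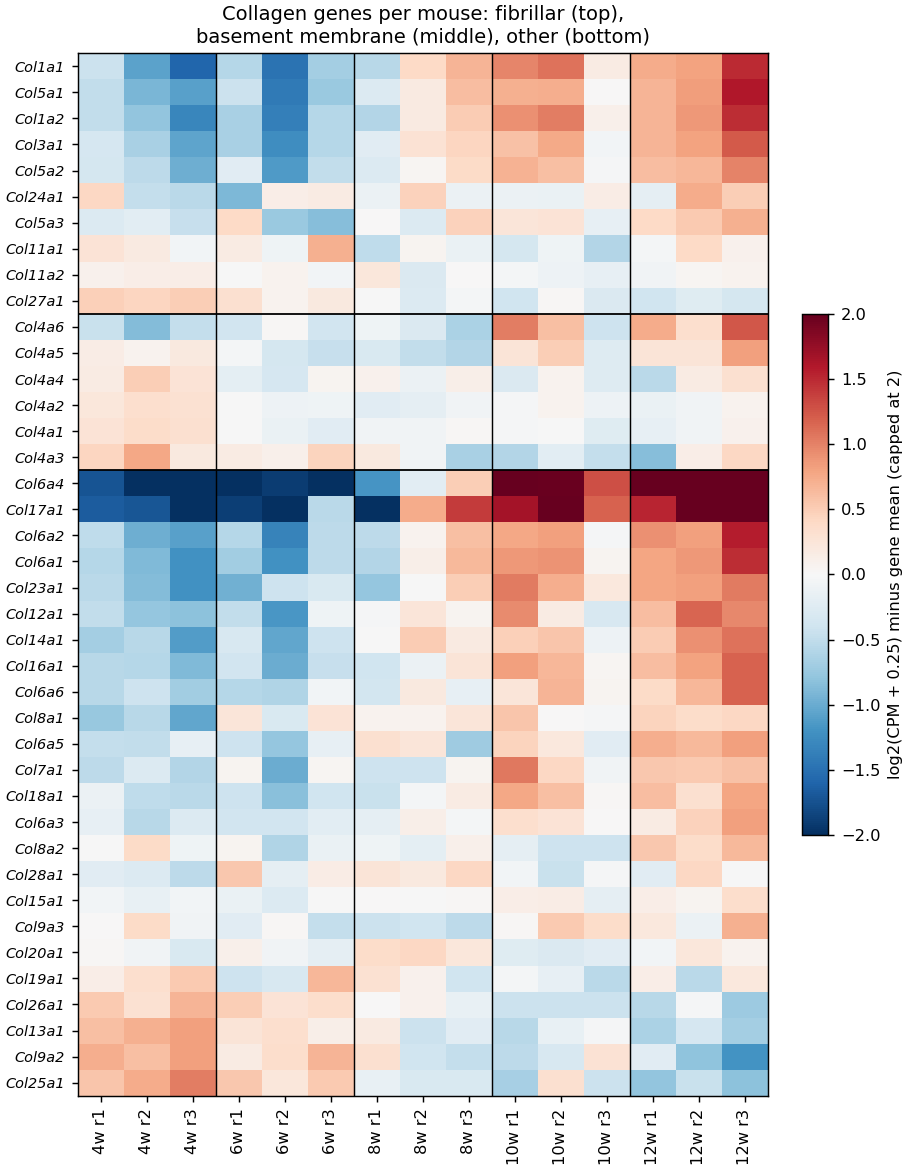
Level of the 40 tested collagen genes (rows) in the 15 mice (columns, by age in weeks and replicate), as log2(CPM + 0.25) minus the mean of the gene and capped at 2, with blue for lower and red for higher values. Most genes of types I, III, V and VI change colour between 6 and 10 weeks. In most of them, mouse 1 at 8 weeks and mouse 3 at 10 weeks lie lower than the other mice of their age.

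The intervals between successive ages held few calls. From 4 to 6 weeks, no collagen gene passed the adjusted threshold in edgeR's quasi-likelihood test, where 0.0906% of all genes did. The unadjusted p was under 0.05 in 7 of the 40 genes, against 8.67% of all genes. The edgeR exact test called 2 (1.59% of all genes) and DESeq2 called 3 (1.57%). By the threshold of the study, a fold of at least 1.5 with an unadjusted p under 0.05, 1 gene was higher (1.15% of all genes), Col8a1 (log2 fold change 0.89, SE 0.20, adjusted p = 0.119), and 0 were lower (1.75% of all genes). Col4a1 and Col4a2 had the smallest p of the collagen genes in this interval (log2 fold changes -0.44 and -0.36, SE 0.09 and 0.07, adjusted p = 0.0803 for both in edgeR).

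From 6 to 8 weeks, 0 genes passed the adjusted threshold among the collagens and 0% among all genes, with 15 collagen genes at an unadjusted p under 0.05, against 18% of all genes. The edgeR exact test called 3 (1.11% of all genes) and DESeq2 called 4 (3.31%). By the study's threshold, 10 were higher, against 8.4% of all genes, namely Col1a1, Col1a2, Col3a1, Col5a1, Col5a2, Col6a1, Col6a2, Col6a4, Col14a1 and Col17a1. Their log2 fold changes ran from 0.66 (Col5a2, SE 0.26) to 3.03 (Col6a4, SE 0.71), and 5 of the 10 fibrillar genes tested were among them. Col6a4 lay under the cutoff of the filter (0.357 CPM) in every mouse at 6 weeks, as did Col17a1 in mice 1 and 2. Both passed the filter only through later ages, at which they were higher. Col25a1 was the 1 gene that was lower (log2 fold change -0.78, SE 0.28), against 1.42% of all genes. Without mouse 2 at 6 weeks the 10 became 4 (4.73% of all genes), and without mouse 3 at 8 weeks they became 5 (4.09%). Without mouse 1 at 8 weeks, 4 collagen genes passed the adjusted threshold, and the share of all genes that passed went from 0% to 4.72%.

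From 8 to 10 weeks, 4 collagen genes passed the adjusted threshold, where 16.8% of all genes did. Col4a5 (log2 fold change 0.70, adjusted p = 0.0488), Col6a4 (2.51, adjusted p = 0.0244) and Col9a3 (0.99, adjusted p = 0.045) were higher, and Col20a1 was lower (-0.61, adjusted p = 0.0226), all by edgeR. This number ranged from 0 to 7 in the fits that each left out a mouse, with 0 without mouse 1 or 2 at 8 weeks or mouse 1 or 2 at 10 weeks, and 7 without mouse 3 at 10 weeks. The share of all genes that passed moved too, to 0% in each of the former fits and to 33.3% in the latter. The unadjusted p was under 0.05 in 10 collagen genes (37.9% of all genes), the edgeR exact test called 1 (0.942%) and DESeq2 called 6 (24.6%). By the study's threshold 8 were higher, against 11.1% of all genes (Col4a5, Col4a6, Col6a4, Col7a1, Col9a3, Col16a1, Col18a1 and Col23a1), and Col20a1 was lower, against 2.83%. None of the chains of types I, III and V was among them.

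From 10 to 12 weeks, 0 collagen genes passed in edgeR's quasi-likelihood test, in the exact test or in DESeq2, against 0%, 0.0423% and 0.0727% of all genes. The unadjusted p was under 0.05 in 4 (7.52% of all genes). By the study's threshold 1 was higher, Col8a2 (log2 fold change 1.05, SE 0.26), against 1.61% of all genes, and 0 were lower, against 0.562%. Without mouse 1 at 12 weeks 5 were higher (1.76% of all genes), and without mouse 1 or 2 at 10 weeks 4 were (2.09% and 2.08%).

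Other genes of the collagen pathway were described for the same ages. Beside each count below stands the share over all genes tested, of which 26.3% rose and 27.2% fell from 4 to 12 weeks. Of 18 tested genes for chain folding and modification, which act in the endoplasmic reticulum, 7 rose and 8 fell from 4 to 12 weeks. The procollagen chaperone Serpinh1 rose, from 63.7 ± 9.34 CPM at 4 weeks to 119.6 ± 34.7 CPM at 12 weeks (mean ± SD, n = 3, as for the genes after it, with a log2 fold change 0.91, SE 0.24, adjusted p = 0.00695), and Fkbp10, a prolyl isomerase, from 5.16 ± 0.778 to 11.8 ± 2.60 CPM (1.19, SE 0.24, adjusted p = 0.00158). P4hb, the protein disulfide isomerase that also serves prolyl hydroxylation, fell from 1187 ± 102 to 751.7 ± 66.5 CPM (-0.66, SE 0.11, adjusted p = 0.000557), and Mia3, which helps export procollagen, fell from 294.5 ± 22.8 to 199.3 ± 20.9 CPM (-0.56, SE 0.11, adjusted p = 0.00148). P4hb also serves the folding of many other secreted proteins, and no direction was shared by this list.

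Of 12 tested genes that process or cross-link collagen outside the cell, 9 rose and 3 fell. Adamts3, one that rose, lay under the cutoff of the filter in all mice at 4 weeks and passed it only through other ages. Pcolce, an enhancer of procollagen cleavage, rose from 8.26 ± 1.67 to 40.6 ± 6.55 CPM (log2 fold change 2.30, SE 0.31, adjusted p = 0.000254), and Loxl1, a lysyl oxidase, rose from 7.29 ± 1.58 to 25.2 ± 5.98 CPM (1.79, SE 0.28, adjusted p = 0.00045). Loxl2, another lysyl oxidase, fell from 62.3 ± 4.86 to 39.7 ± 5.67 CPM (-0.65, SE 0.10, adjusted p = 0.000497). Bmp1, the main enzyme that removes the C-terminal propeptide, fell slightly (-0.25, SE 0.09, adjusted p = 0.0307).

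Of 7 proteoglycans that bind fibrils, 6 rose and none fell, with Aspn the exception (log2 fold change -0.24, adjusted p = 0.21). Decorin (Dcn) rose from 20.2 ± 9.69 to 202.1 ± 59.8 CPM (3.32, SE 0.43, adjusted p = 0.000225), and Prelp and Fmod rose with log2 fold changes of 3.39 and 4.34. Of 9 tested collagen receptors, 6 rose and 1 fell. Ddr2, the receptor tyrosine kinase for fibrillar collagen in mesenchymal cells, rose from 7.86 ± 0.812 to 40.6 ± 8.72 CPM (2.37, SE 0.31, adjusted p = 0.000241), while Ddr1, its epithelial relative, fell from 207.9 ± 8.28 to 147.2 ± 10.4 CPM (-0.50, SE 0.12, adjusted p = 0.00484). Lair1, a collagen receptor of leukocytes, rose from 4.37 ± 3.13 to 21.6 ± 5.05 CPM (2.30, SE 0.64, adjusted p = 0.00911).

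Markers of several cell types were described in the same way. For each list here and in the next paragraph, the shares over all genes tested were again 26.3% higher and 27.2% lower. Some of the lists lie near these shares. Of the 10 fibroblast markers, 9 that were above the cutoff of the filter in some mouse at 4 weeks rose, and Twist2, which passed the filter only through other ages, was also called higher. The sum of the list went from 45.7 to 66.3 CPM across the mice at 4 weeks to 200.8 to 279.7 CPM at 12 weeks. At 8 weeks this sum was 85.1, 121.2 and 146.4 CPM in mice 1, 2 and 3, the order of Col1a1 in the same mice, and at 10 weeks it was 218.7, 203.4 and 113.2 CPM, where mouse 3 was also the lowest for Col1a1. This match was not particular to fibroblast markers. The leukocyte, Schwann cell and lymphoid stroma sums had the same order at 8 weeks and were lowest in mouse 3 at 10 weeks. The mural and endothelial sums did not have that order at 8 weeks, but were also lowest in mouse 3 at 10 weeks. Of the 10 mural cell markers 6 rose (sum 355.8 to 372.4 CPM at 4 weeks, 433.1 to 530.4 CPM at 12 weeks), and of the 10 endothelial markers 4 rose and 1 fell (697.9 to 726.2 CPM and 807.4 to 896.2 CPM). Each marker of these lists had counts in some mice.

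The leukocyte markers had a sum of 36.1 to 193.3 CPM at 4 weeks and 1670 to 1949 CPM at 12 weeks. Of 6 markers of lymphoid stroma and high endothelial venules, 3 that were above that cutoff in some mouse at 4 weeks rose. These were Ccl19 (2.99 ± 2.90 CPM at 4 weeks and 64.7 ± 10.4 CPM at 12 weeks, mean ± SD), Ccl21a (5.36 ± 2.82 and 51.2 ± 39.7 CPM) and Cxcl13 (0.689 ± 0.864 and 80.8 ± 17.6 CPM). The other 3, Madcam1, Glycam1 and Chst4, had at most 4, 1 and 0 counts in a mouse at 4 weeks and passed the filter only through other ages, at which they were high. Of the 8 Schwann cell markers 5 rose (34.0 to 40.3 CPM and 68.4 to 82.0 CPM), and none of the 8 acinar markers passed the test in either direction. The 6 mesothelial markers summed to 132.6 to 183.6 CPM at 4 weeks and 31.5 to 34.9 CPM at 12 weeks, and Msln fell (log2 fold change -3.05, SE 0.26, adjusted p = 0.000117). Of the 4 others tested, all called higher, Upk3b, Lrrn4 and Wt1 had at most 2 counts in any mouse at 4 weeks and passed the filter only through other ages. Of 6 duct markers 3 rose and 1 fell, and of 12 endocrine markers 10 fell (166000 to 174800 CPM and 77090 to 91310 CPM). The part of each cell type in the levels of the collagen genes was not tested.

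**Figure D5:**
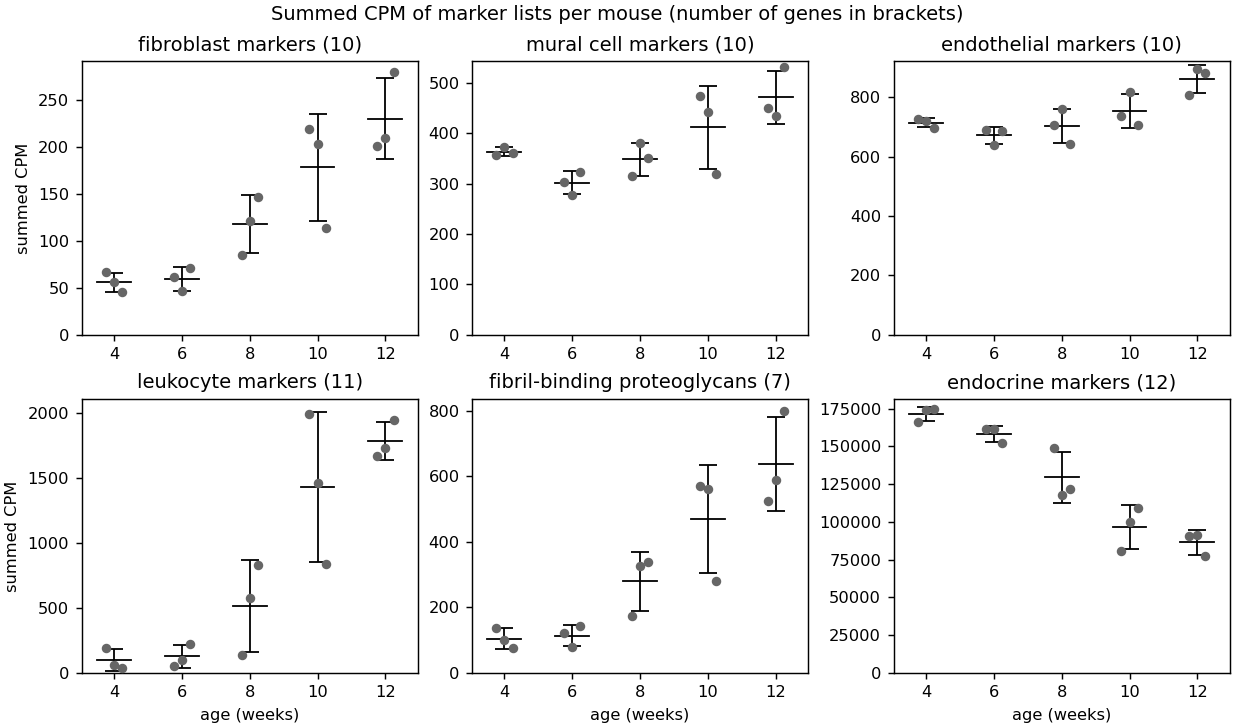
Summed CPM (vertical axes, each from 0) of 5 marker lists and of the fibril-binding proteoglycans against age in weeks, with a point per mouse, the mean as a line and the SD of 3 mice as a bar. The fibroblast, leukocyte and proteoglycan sums are higher at 12 than at 4 weeks in every mouse, and the endocrine sum is lower in every mouse.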

How the data were processed

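Islet RNA of 15 NOD females, 3 mice at each of 5 ages, was described by the study as polyadenylated RNA sequenced in pairs and processed in CLC Genomics Workbench 23.0 with default trimming, alignment and counting. The submitters' processing notes name the build mm10. Regions of 42 of the 44 collagen genes equalled GENCODE M21 on GRCm38. The deposited counts are raw read numbers per gene, with no scaling by the authors. The deposited TPM values were computed by the authors per gene length and were used only to compare levels between genes. A further 30 per-sample columns (RPKM and CPM) were not used. Strandedness of the counting is not given in the sources used here.

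Counts were fitted over all 15 mice in edgeR 4.0.16 (R 4.3.3) with filterByExpr over the 5 ages, which kept 16554 of 48709 genes, TMM scaling, a mean per age and the quasi-likelihood test, with Benjamini-Hochberg adjustment over all genes tested and a threshold of 0.05. CPM were scaled by TMM, and log2 CPM carried a prior count of 2. The threshold of the study, a fold of 1.5 with an unadjusted p under 0.05, was counted beside it. The standard error is the log2 fold change divided by the root of the quasi-likelihood F. The ratios between chains were compared with exact permutation tests in scipy 1.17.1, two-sided. The fit was also run on counts simulated from these data, after the fit to the data themselves. The groups came from the ages in the sample labels. Each p-value of the quasi-likelihood test sets a difference between ages against the spread between mice of the same age. That spread was estimated over all 15 mice together. Totals ran from 25407492 to 41616275 counts. Intervals and limits from counts cover counting error only.

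Alternatives were DESeq2 size factors, library totals, no filter, the replicate block, both ages alone, the edgeR exact test, DESeq2 1.42.0, another prior count of 0.5, types VII, XV and XVIII counted with the basement membrane, and each mouse left out. The genes named with values in every mouse are types I, III, V, VI, XV and XVIII, the main type IV chains and every member that passed the test at 12 against 4 weeks, with the others given by range. The members and lists were chosen with earlier results of these data known. The calls of single leukocyte markers are not reported here.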

Additional observations from a re-analysis of the deposited data

How the results depend on the processing

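From 4 to 12 weeks, 26 to 31 collagen genes were called under every alternative, against 29, and with library totals 26 rose and 5 fell, where 78.27% of all called genes were higher, against 49.19% with TMM. Of all 16554 genes tested, 8858 were called with TMM and 8376 with library totals. The intervals were less stable. From 4 to 6 weeks the number called (0) was 2 by the edgeR exact test, 3 by DESeq2 and 0 to 2 with a mouse left out (2 without mouse 3 at 10 weeks). From 6 to 8 weeks (0) it was 3, 4 and 0 to 4 (4 without mouse 1 at 8 weeks). From 8 to 10 weeks (4) it was 2 without the filter, 0 with both ages alone, 1 by the exact test, 6 by DESeq2 and 0 to 7 with a mouse left out. By the study's threshold, leaving out a mouse gave 1 to 2 higher and 0 to 2 lower from 4 to 6 weeks, 4 to 13 higher and 1 to 2 lower from 6 to 8 weeks, 3 to 10 higher and 0 to 1 lower from 8 to 10 weeks, and 1 to 5 higher and 0 to 2 lower from 10 to 12 weeks. From 8 to 10 weeks, 4 were higher with both ages alone and 5 by the exact test, and 0 were lower with DESeq2 size factors, library totals or DESeq2. From 10 to 12 weeks, 2 were higher with DESeq2 size factors, library totals, both ages alone or DESeq2, and 3 by the exact test. The share of all genes called moved with the setting as well. From 6 to 8 weeks, the share higher by the study's threshold was 8.4%, but 4.73% without mouse 2 at 6 weeks and 4.09% without mouse 3 at 8 weeks. Shares are not given for every fit, so these ranges do not describe the collagen genes alone. The cause of these differences was not tested.

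The mean log2 CPM of the basement membrane class at 12 minus 4 weeks (0.06) was 0.30 with library totals, 0.29 with types VII, XV and XVIII included, and -0.12 to 0.20 with a mouse left out, where -0.12 came without mouse 3 at 12 weeks. That of the other collagens (0.85) was 1.07 with library totals, and that of the fibrillar class (0.85) stayed between 0.69 and 0.97 with a mouse left out. The mean of the other collagens covers all 27 genes, among them Col6a4 and Col17a1, with log2 fold changes of 6.56 and 5.24. Its value without these genes was not computed. Single genes that turned sign had not passed the test: Col11a1 was at -0.095 without mouse 3 at 4 weeks and -0.16 without mouse 2 at 12 weeks, Col11a2 at 0.15 with library totals, and Col9a3 (0.23) at -0.083 without mouse 3 at 12 weeks, with up to 0.429 (without mouse 2 at 12 weeks).

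The sample labels give a replicate number and name no batch. In the pairwise comparisons the correlation of same-numbered deviations ran from -0.504 to 0.509. It was 0.509 and 0.489 for mice 1 and 3 at 8 against 6 weeks, and -0.504 and -0.463 for the same numbers at 6 against 4 weeks. Whether same-numbered mice had anything else in common was not tested. With the replicate block, 28 collagen genes were called from 4 to 12 weeks (21 higher and 7 lower), 0 in each interval, where 8 to 10 weeks had held 4, and 30 over all ages. From 4 to 12 weeks, the block fit called 8328 of all 16554 genes tested, against 8858 without the block. At low counts, as in Col24a1, counting error widens the interval of a fold change.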
